A study of Mus musculus with 9 samples.

Results

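Irradiated mice that were given lycopene were compared with irradiated mice that were not, in RNA of the intestine, in a series that asked whether lycopene lessens radiation injury of the gut. The IR+LYC group received lycopene, the red carotenoid of tomato, by gavage in corn oil at 10 mg/kg per day over 10 days, with 12 Gy of irradiation to the whole abdomen on day 4. The IR group received corn oil alone and the same irradiation on the same day. The NC group received corn oil and no irradiation, and its libraries served as a reference level outside the test. Each group had 3 libraries, so the comparison used 6 of the 9 libraries of the series, and the corn oil vehicle was common to all of them. Lycopene alone was not analysed here. The FPKM values resolved into 17803889 to 22414949 reads on genes in a library. The genes compared were those at 0.5 FPKM or more (fragments per kilobase of gene, with the scaling of each library as deposited) in at least 3 of the 6 IR+LYC and IR libraries, 14816 of 54532 genes. At that level Sh2d6 (0.550 FPKM in the library that ranked number 3 of the 6) was just inside, and Il17rb (0.496 FPKM) was just outside. The labels give neither the strain and age of the mice nor the segment of gut, and whether each library came from its own animal is not stated, so a p-value here measures the spread between samples.

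The lining of the small intestine is renewed from stem cells at the base of the crypts, which also hold Paneth cells, while absorptive enterocytes, goblet, tuft and enteroendocrine cells cover the villi. Abdominal irradiation kills dividing crypt cells through the p53 response, and surviving cells then rebuild the epithelium with signals from the stroma below it. Lycopene is a scavenger of reactive oxygen in vitro. In mouse enterocytes, the carotenoid oxygenases Bco1 and Bco2 cleave carotenoids, and the transporter Scarb1 takes them up. In bulk tissue, fewer cells of a type and less RNA per cell cannot be told apart. Vil1, the villin of epithelial microvilli, was at 140.3, 821 and 277 FPKM in the 3 IR+LYC libraries, 632, 291 and 782 in IR and 887, 807 and 924 in NC, so epithelium was present in all 9.

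The 3 IR+LYC libraries did not resemble one another, and this bears on every result that follows. Spearman correlations within the group were 0.869 (libraries 1 and 2), 0.962 (1 and 3) and 0.921 (2 and 3), against 0.955 to 0.981 within IR. IR+LYC 2 correlated with NC 1 at 0.976, more closely than with either library of its own group. The first principal component of the 6 libraries held 66.6% of the variance and placed IR+LYC 2 at 59.5, far from IR+LYC 1 at -52.4 and IR+LYC 3 at -19.6. On it the IR libraries lay between IR+LYC 1 and IR+LYC 2, at 15.1, -28.0 and 25.3. The second component (12.4%) placed the IR+LYC libraries at 16.9, 23.3 and 4.26, above the IR libraries at -13.4, -10.6 and -20.3.

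Genes on which the IR and NC libraries did not overlap and differed at least 2-fold showed where each IR+LYC library lay. Of 58 such genes that were higher in IR, IR+LYC 2 was nearer to the NC mean at 52 (89.7%), IR+LYC 1 at 5 (8.62%) and IR+LYC 3 at 8 (13.8%). Of 299 that were lower in IR, IR+LYC 2 was nearer to the NC mean at 217 (72.6%), IR+LYC 1 at 16 (5.35%) and IR+LYC 3 at 18 (6.02%). The library labelled IR+LYC 2 thus lay nearer to NC than to IR at most of these genes, and libraries 1 and 3 did not. On the 2 lymphocyte lists described below, IR+LYC 2 was below every NC library. These genes were chosen with the IR libraries, which can exaggerate the distance of IR from NC. IR+LYC values entered the choice only through the level for testing. A gene below that level in all IR libraries could thus be among the 299 only through the IR+LYC libraries. The median within-group SD of a gene, on log2(FPKM + 1), was 0.258 in IR+LYC, against 0.159 in IR and 0.120 in NC, and it was 0.127 between IR+LYC 1 and IR+LYC 3 alone. Whether IR+LYC 2 is labelled rightly, or was irradiated like the others, was not tested. Every IR+LYC mean includes it, so list medians are also given without it, and for most lists as a range with each of the 6 libraries left out in turn.

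**Figure D1:**
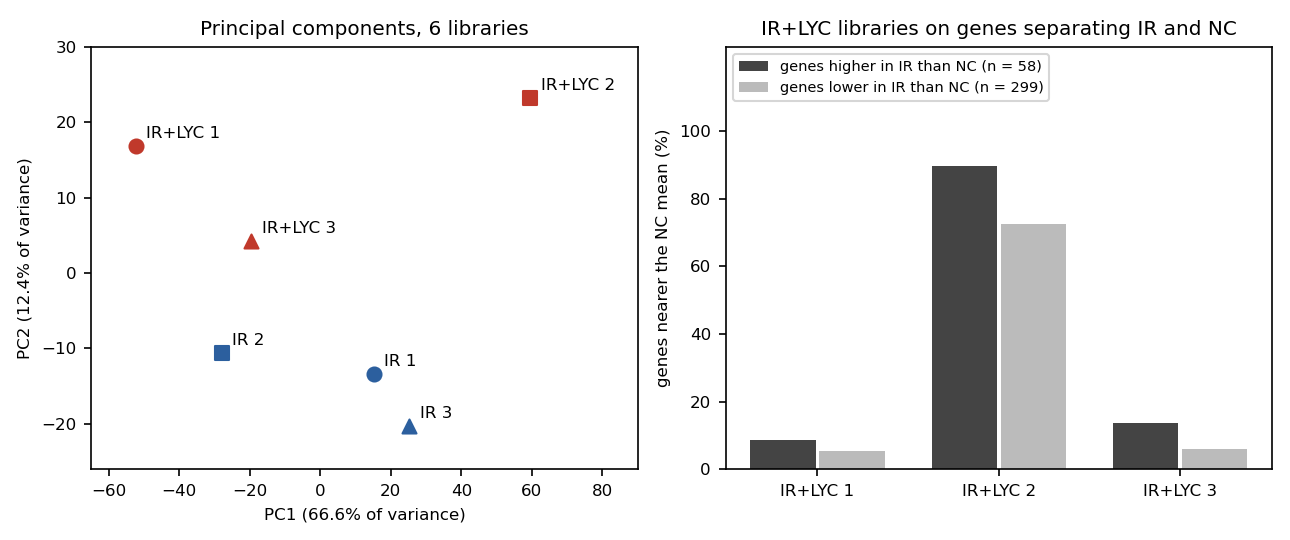
Left, the 6 libraries on principal components 1 and 2 of log2(FPKM + 1) over the 14816 genes tested, with IR+LYC in red and IR in blue. Right, the percentage of genes at which each IR+LYC library was nearer the NC mean than the IR mean, for 58 genes higher (dark bars) and 299 genes lower (light bars) in IR than in NC. IR+LYC 2 stands alone at the right of the left panel and has the tallest bars, 89.7% and 72.6%.

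No gene passed in IR+LYC against IR. Of 14816 genes tested with limma, 0 (0%) had a Benjamini-Hochberg adjusted p under 0.05, and the smallest adjusted p was 0.9999, so no gene named here had a smaller one in this fit. At an unadjusted p under 0.05 there were 405 genes, 216 higher in IR+LYC (1.46%) and 189 lower (1.28%). A limma-voom fit on reads recovered from the FPKM values also passed 0 genes, with 414 at an unadjusted p under 0.05. The IR+LYC and IR libraries did not overlap at 1109 genes. Of these, 630 had all 3 IR+LYC libraries above all 3 IR libraries (4.25% of the genes tested) and 479 had all 3 below (3.23%). After rescaling without mitochondrially encoded, immunoglobulin and pancreatic genes the split turned to 320 higher and 610 lower, so that the share of higher genes was 34.4%, against 56.8% as deposited, and 201 of the 630 and 181 of the 479 were still separate. With 3 libraries against 3, an exact two-sided permutation test of 1 gene cannot give a p under 0.1.

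Leaving out IR+LYC 2 raised the number of genes at an unadjusted p under 0.05 to 2160, and 0 passed adjustment (smallest adjusted p 0.0954, where the alternatives ran from 0.0803 to 1). Over 47 lists of cell type and pathway genes, 779 of 855 genes were tested and 0 passed. The groups did not overlap at 25 of the 779 in the higher direction (3.21%) and at 30 in the lower (3.85%), near the shares of 4.25% and 3.23% over all genes. Over all genes tested, 47.9% had a higher mean in IR+LYC and the median log2 difference was -0.01. Log2 differences here are IR+LYC minus IR on log2(FPKM + 1), with the standard error of the limma fit, and the added 1 understates the change of genes near or below 1 FPKM.

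Among genes with at least 5 FPKM in the higher group and no overlap between IR+LYC and IR, 229 were higher and 244 lower, and the 12 of smallest p in each direction are described here. Ndufa12, a subunit of respiratory complex I (chromosome 10, 94198720 to 94221443), had the largest difference of the higher set. It was at 37.2, 36.1 and 43.3 FPKM in IR+LYC, against 14.4, 19.1 and 16.7 in IR (log2 difference 1.17, SE 0.16). The NC libraries were at 18.0, 40.6 and 16.9, so NC 2 lay with the IR+LYC libraries and NC 1 and NC 3 with IR. Ddit4, an inhibitor of mTORC1 induced by stress (chromosome 10, 59949669 to 59951834), was at 52.4, 57.9 and 54.5 FPKM in IR+LYC and at 31.6, 40.0 and 26.1 in IR, with 19.8, 22.03 and 30.5 in NC (log2 difference 0.76, SE 0.19). The lowest IR+LYC library was above every IR and every NC library for this gene. Tfrc, the transferrin receptor that brings iron into cells (chromosome 16, 32608920 to 32632794), was at 30.2, 35.3 and 30.3 FPKM in IR+LYC, against 21.9, 20.5 and 21.4 in IR and 28.9, 18.3 and 15.3 in NC (log2 difference 0.56, SE 0.13). Slc19a1, the reduced folate carrier, was at 7.69, 8.68 and 6.85 FPKM in IR+LYC, against 4.61, 4.99 and 4.33 in IR and 5.61, 5.03 and 4.92 in NC. It overlaps Col18a1 on the other strand, and whether reads were counted by strand is not given, so the reads of the 2 genes may be mixed, as for each such overlap named for other genes. That every lycopene library was above every IR library at Tfrc, Slc19a1 and the rest of this set follows from how the genes were chosen.

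Secretory epithelium supplied 2 of the 12 higher genes. Muc2, the mucin of goblet cells (chromosome 7, 141690340 to 141754693), was at 45.2, 37.9 and 31.6 FPKM in IR+LYC, against 20.7, 25.9 and 21.1 in IR and 17.4, 27.9 and 28.2 in NC (log2 difference 0.73, SE 0.18; 0.73 without IR+LYC 2). Hepacam2, an adhesion protein found in goblet cells, was at 7.75, 7.32 and 6.75 FPKM in IR+LYC, against 5.22, 5.33 and 5.08 in IR and 5.51, 5.98 and 6.99 in NC. For both genes the place of the IR libraries below the lycopene libraries was required by the choice. Gas5, a long RNA that hosts small nucleolar RNAs, was at 20.2, 18.7 and 18.2 FPKM in IR+LYC, against 12.3, 14.5 and 11.7 in IR and 14.2, 13.1 and 12.4 in NC, and its groups overlapped after the rescaling described above. The other higher genes were Mcrip2, Ano7, Macrod1, a hydrolase of ADP-ribose, Lmcd1, a LIM domain protein, and Mir5125, with log2 differences of 0.83, 0.60, 0.51, 0.77 and 0.88. Under the same rescaling the groups remained separate for 23 of the 24 genes of the 2 sets, Gas5 being the exception.

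Mir5125 is a microRNA precursor within Srrm2 on the same strand, so reads of Srrm2 and of the precursor cannot be told apart in these libraries. It was at 26.9, 26.6 and 28.3 FPKM in IR+LYC, against 10.9, 16.9 and 15.9 in IR and 28.1, 39.0 and 14.1 in NC. The reads behind these values were few, 60, 32 and 46 reads in IR+LYC, against 17, 30 and 23 in IR. The mature sequence is shown because it is the product annotated there, from RefSeq on GRCm38.p6 at chr17:23823339-23823358 on the plus strand, with its seed (bases 2 to 8) in capitals.
mmu-miR-5125: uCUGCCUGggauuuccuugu

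In the lower set the smallest p belonged to Slc10a2, the transporter by which the ileum takes up bile acids (chromosome 8, 5083219 to 5105351). It was at 1.96, 1.31 and 1.37 FPKM in IR+LYC, against 13.9, 11.2 and 5.14 in IR (log2 difference -2.04, SE 0.34). Its NC libraries were at 2.52, 20.3 and 21.7, so NC 1 was close to the lycopene libraries while NC 2 and NC 3 were above every irradiated library. Tmigd1, an adhesion protein of the brush border (chromosome 11, 76902159 to 76916587), was at 5.66, 8.61 and 16.2 FPKM in IR+LYC, against 94.9, 31.2 and 54.5 in IR and 26.6, 113 and 154 in NC (log2 difference -2.43, SE 0.50). Mgat4c, of the family of N-glycan branching enzymes, was at 4.61, 2.70 and 8.56 FPKM in IR+LYC, against 27.3, 13.98 and 17.9 in IR and 5.49, 12.8 and 18.4 in NC (log2 difference -1.78, SE 0.40). NC 1 was the lowest NC library at all 3 genes, as it was at Fabp6, an ileal gene. Levels of ileal genes thus differed between libraries of 1 group, and the part of this in the 3 results was not tested.

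Other genes of the lower set belong to matrix, coagulation and adhesion. Col14a1, a collagen of the fibril surface (chromosome 15, 55307750 to 55520803), was at 5.85, 5.44 and 5.61 FPKM in IR+LYC, against 7.47, 7.44 and 7.56 in IR and 8.75, 6.38 and 7.47 in NC (log2 difference -0.36, SE 0.10). Its difference was small, and its libraries agreed closely within each irradiated group. Col6a4, a chain of collagen VI, was at 4.39, 5.80 and 4.27 FPKM in IR+LYC, against 8.02, 7.34 and 10.6 in IR and 10.0, 7.96 and 9.26 in NC. F2r, the thrombin receptor PAR1 (chromosome 13, 95601803 to 95618487), was at 10.6, 8.18 and 9.28 FPKM in IR+LYC, against 13.9, 13.7 and 15.9 in IR and 15.1, 14.2 and 14.2 in NC (log2 difference -0.58, SE 0.14). IR and NC lay together at these 3 genes, and the lycopene libraries lay below both. Pros1, the anticoagulant protein S, was at 14.03, 12.9 and 12.5 FPKM in IR+LYC, against 17.5, 19.2 and 18.1 in IR and 17.4, 13.6 and 14.5 in NC. Cxcl14, a chemokine, was at 9.93, 13.2 and 8.29 FPKM in IR+LYC, against 20.5, 15.2 and 25.6 in IR and 32.6, 19.2 and 30.2 in NC (log2 difference -0.89, SE 0.25). The remaining genes were Tns4, a tensin of cell adhesions, Pof1b, which binds actin at epithelial junctions, Fam102b and Egln3, with log2 differences of -0.67, -0.85, -0.73 and -0.84.

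**Figure D2:**
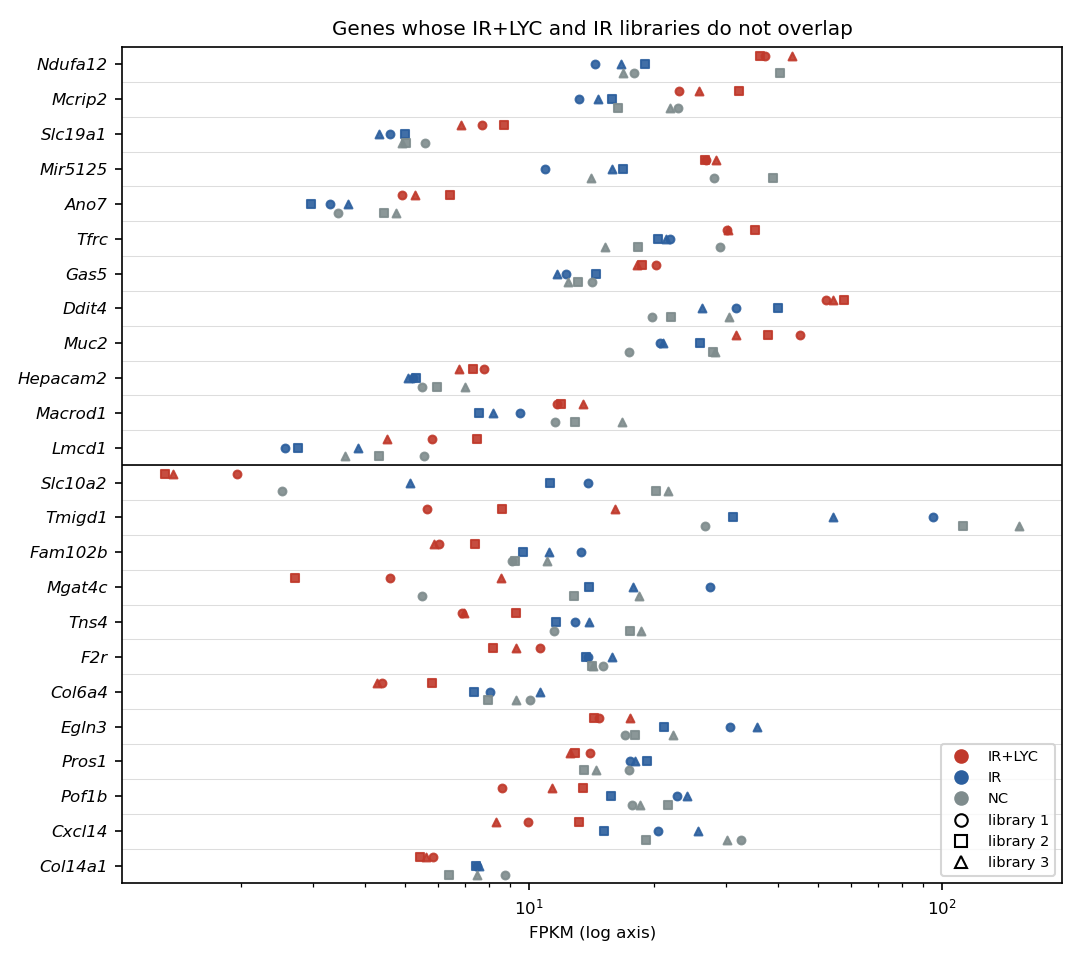
FPKM on a log axis for the 12 higher genes (above the line) and the 12 lower genes (below it), with 1 mark per library, IR+LYC in red, IR in blue and NC in grey. The red and blue marks do not overlap in any row, because this was required for a gene to be shown. The grey marks lie on either side, for example below the red at Ddit4 and with the blue at F2r.

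Absorptive genes varied more within the lycopene group than between the groups. All 22 genes of the enterocyte brush border list had a lower mean on the log scale in IR+LYC, yet 0 passed, 0 had groups that did not overlap and 0 had an unadjusted p under 0.05. Their mean log2(FPKM + 1) was 4.17, 8.09 and 5.80 in IR+LYC, against 7.40, 5.18 and 7.55 in IR and 8.20, 7.82 and 8.06 in NC. IR+LYC 2 was within the NC range, IR+LYC 1 was lowest of all, and among the IR libraries IR 2 was low. The median log2 difference of the list was -0.71, and it was -1.68 without IR+LYC 2, 0.20 without IR+LYC 1 and -1.46 without IR 2. Single digestive enzymes and transporters showed the same order of libraries. Alpi, the alkaline phosphatase of the brush border, was at 17.5, 403 and 85.2 FPKM in IR+LYC, against 206, 44.9 and 228 in IR and 296, 225 and 281 in NC. Sis, which digests sucrose, was at 47.0, 1068 and 123 FPKM in IR+LYC, against 607, 112 and 633 in IR. Slc5a1, the sodium-driven glucose transporter, was at 36.5, 1324 and 83.5 FPKM in IR+LYC, against 399, 79.0 and 471 in IR. In these 3 genes IR+LYC 2 was above every IR library and IR+LYC 1 was below every one. Genes of fat absorption were lower at 17 of 20 with 0 separate (median log2 difference -0.43, -1.45 without IR+LYC 2 and 0.27 without IR+LYC 1). Fabp2, the enterocyte fatty acid binding protein, was at 521, 5416 and 2873 FPKM in IR+LYC, against 8584, 1658 and 9919 in IR, so IR+LYC 1 was again the lowest and IR+LYC 2 the highest of its group.

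Genes that mark positions along the gut showed unequal levels between libraries of 1 group. In the ileal bile acid list 6 of 7 genes were lower, 2 of them separate (Slc10a2 and Slc51a), with a median log2 difference of -1.13, of -0.95 without IR+LYC 2 and of -0.58 without IR+LYC 1. Slc51a, a subunit of the exporter that passes bile acids to blood, whose gene overlaps Pcyt1a on the other strand, was at 13.5, 53.9 and 37.6 FPKM in IR+LYC, against 77.2, 57.7 and 69.3 in IR and 53.3, 102 and 105 in NC. Fabp6, the bile acid binding protein of ileal enterocytes (chromosome 11, 43596049 to 43601540), was at 93.9, 0.274 and 419 FPKM in IR+LYC, against 305, 1561 and 119 in IR and 0.593, 89.9 and 253 in NC. It was thus near 0 in IR+LYC 2 and NC 1 and far higher in the other 7 libraries. Ada, adenosine deaminase, which is high in duodenum, was at 4.51, 270.2 and 5.26 FPKM in IR+LYC, against 9.04, 4.86 and 15.1 in IR and 54.1, 32.6 and 46.3 in NC. IR+LYC 2 had the highest level of Ada among the 9 libraries and the lowest of Fabp6. Proximal small intestine markers had a median log2 difference of -0.05 over 10 genes (-0.81 without IR+LYC 2 and 1.17 without IR+LYC 1), and Cybrd1, the duodenal iron reductase, was the separate gene, at 1.89, 0.861 and 1.52 FPKM in IR+LYC and 2.93, 2.07 and 2.25 in IR. Colon markers had 6 of 7 genes lower and a median of -0.16 (-0.76 without IR+LYC 2 and 0.05 without IR+LYC 1).

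Goblet cell genes leaned higher in IR+LYC whichever library was left out. Of 14 genes 12 had a higher mean in IR+LYC, 3 were separate and higher, and 0 passed. Over all genes tested, 47.9% had a higher mean and 4.25% were separate and higher. The median log2 difference was 0.26, within 0.13 to 0.32 over the 16 alternatives, and 0.31 without IR+LYC 2. Beside Muc2, the separate genes were Tff3, a trefoil peptide secreted with mucus, and Fcgbp, a mucus protein. Tff3 was at 986, 1827 and 1130.3 FPKM in IR+LYC, against 681, 739 and 914 in IR and 733, 1118 and 1187 in NC. Fcgbp was at 117, 219.7 and 97.6 FPKM in IR+LYC, against 78.1, 71.5 and 96.0 in IR and 77.3, 122 and 129 in NC. IR+LYC 2 was the highest library for both, and the lowest lycopene library exceeded the highest IR library by a small margin.

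Tuft cells are chemosensory cells that set off immunity to parasites. Of the 10 tuft genes tested 8 were higher and 4 of these separate, but Sh2d6 and Matk reached the level for testing only through the IR+LYC libraries, so they could enter only as higher genes. Avil, an actin binding protein whose gene overlaps the more highly expressed Tsfm on the other strand, was at 1.34, 2.47 and 1.39 FPKM in IR+LYC, against 0.659, 0.915 and 0.754 in IR and 1.82, 1.81 and 2.33 in NC. Matk, a kinase, was at 0.963, 0.786 and 0.782 FPKM in IR+LYC, against 0.376, 0.474 and 0.439 in IR. Sh2d6 was at 0.550, 3.59 and 0.727 FPKM in IR+LYC, against 0.410, 0.179 and 0.220 in IR and 1.996, 2.40 and 2.42 in NC, with IR+LYC 2 far above the other 2. At Avil and Sh2d6 the place of IR below IR+LYC follows from being separate and higher. The IR libraries were also below the NC libraries, but separate and higher genes are favoured by low IR values. Alox5, which makes leukotrienes, was the other separate gene among those higher, and Hpgds, a prostaglandin synthase, was separate and lower but overlapped after rescaling. The median was 0.25 (0.17 without IR+LYC 2 and 0.17 to 0.35 with 1 library left out), and it was -0.05 when a mean of 5 FPKM was required, which leaves few of these weakly expressed genes. Trpm5, Pou2f3, Il25 and 3 further tuft genes were below the level for testing. Over all genes tested, 4.25% were separate and higher. Enteroendocrine genes were higher at 13 of 16, with a median of 0.25 (0.26 without IR+LYC 2 and 0.21 to 0.31 with 1 library left out) and 3 separate. These were Sst, somatostatin, which overlapped after rescaling, Chgb, a granule protein, and Cck, cholecystokinin, which was at 11.9, 20.3 and 12.9 FPKM in IR+LYC, against 11.1, 9.60 and 10.7 in IR and 10.5, 8.87 and 8.57 in NC. Paneth cell genes had a median of 0.08 over 18 genes, 0.48 without IR+LYC 2 and -0.04 to 0.48 with 1 library left out. Lyz1, the Paneth lysozyme, was at 7946, 3227 and 7144 FPKM in IR+LYC, against 6189.6, 4099 and 3822 in IR and 7689.8, 9218 and 9179 in NC, so that IR+LYC 2 was below all 3 IR libraries and the other 2 were above them. Reg4, a lectin that is also made by goblet and enteroendocrine cells, was the separate gene, at 265, 144 and 143 FPKM in IR+LYC and 93.8, 99.7 and 109 in IR.

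Crypt base and cell cycle genes showed no separation beyond 1 gene, Znrf3, and that gene's groups overlapped under either other scaling. Crypt base stem cell genes were higher at 14 of 18 (median log2 difference 0.19, 0.43 without IR+LYC 2 and -0.03 without IR+LYC 1). Lgr5, the receptor that marks crypt base stem cells, was at 1.96, 0.601 and 1.32 FPKM in IR+LYC, against 1.45, 1.13 and 1.25 in IR and 1.59, 1.74 and 1.52 in NC. Olfm4, a secreted crypt base glycoprotein, was at 567, 262 and 536 FPKM in IR+LYC, against 338, 304 and 294 in IR and 298, 282 and 253 in NC. At both genes the lowest of the 6 irradiated libraries was IR+LYC 2 and the highest was IR+LYC 1. Cell cycle genes were higher at 19 of 24 with 0 separate, and their median was 0.05 (0.23 without IR+LYC 2 and -0.05 without IR+LYC 1). Mki67, a marker of cycling cells, was at 21.98, 17.8 and 22.4 FPKM in IR+LYC, against 18.8, 22.3 and 19.4 in IR. Regenerative epithelium genes, which mark the fetal-like state of repair, were lower at 15 of 18 (median -0.20, 0.01 without IR+LYC 2 and -0.40 to 0.01 with 1 library left out). Of these, Ereg and Msln were separate. Ereg, a ligand of the EGF receptor, whose gene overlaps an antisense RNA, was at 2.83, 1.07 and 2.32 FPKM in IR+LYC, against 3.97, 4.17 and 3.58 in IR and 1.45, 2.64 and 2.68 in NC. Msln, mesothelin, was at 2.04, 0.279 and 2.30 FPKM in IR+LYC, against 3.87, 2.71 and 5.70 in IR and 2.74, 0.809 and 1.58 in NC.

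Targets of p53, the factor that arrests or kills cells after DNA damage, had a median log2 difference of -0.07 over 26 genes, -0.04 without IR+LYC 2 and within -0.12 to -0.02 over the alternatives. Phlda3, a p53 target that restrains AKT, was at 21.5, 5.64 and 16.5 FPKM in IR+LYC, against 13.6, 18.0 and 12.9 in IR and 4.19, 4.75 and 3.89 in NC. For Phlda3, IR+LYC 2 was just above the NC range, and the other 2 lycopene libraries were within or above the IR range. Cdkn1a, which encodes the cell cycle inhibitor p21, stood at 31.1, 82.8 and 33.9 FPKM in IR+LYC, against 56.4, 42.4 and 65.8 in IR and 73.4, 64.1 and 74.96 in NC. Bax, which permeabilizes mitochondria in apoptosis, was at 41.0, 27.2 and 39.3 FPKM in IR+LYC, against 29.1, 38.8 and 30.4 in IR and 19.0, 26.1 and 25.6 in NC. At both of these genes IR+LYC 2 lay just above the NC range. Ddb2, a sensor of ultraviolet damage in DNA, was the separate target and overlaps the more highly expressed Acp2 on the other strand, at 2.51, 1.68 and 1.86 FPKM in IR+LYC, against 1.08, 1.36 and 0.977 in IR and 1.39, 1.27 and 1.40 in NC, and its groups overlapped after rescaling. BCL2 family genes, 16 tested, had a median close to 0 and 0 separate (-0.002, -0.06 without IR+LYC 2 and -0.06 to 0.02 with 1 library left out). DNA damage signalling and repair genes had a median of 0.08 over 22 genes (0.20 without IR+LYC 2 and -0.03 to 0.20 with 1 library left out), with Brca2, a DNA repair protein, as the separate gene until rescaling.

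Redox genes bear on the use of lycopene as an antioxidant. Of 21 NRF2 antioxidant genes 17 were lower, 2 separate (Gsr and Pgd), and 1, Gstm1, was separate and higher. Gsr, glutathione reductase (chromosome 8, 33652523 to 33698163), was at 89.9, 84.7 and 99.6 FPKM in IR+LYC, against 138, 133 and 119 in IR and 79.6, 106 and 83.4 in NC (log2 difference -0.50, SE 0.16). Being separate and lower places the lycopene libraries of Gsr below the lowest IR library, and all its NC libraries were also below it. Gstm1, a glutathione transferase, was at 50.9, 65.6 and 44.1 FPKM in IR+LYC, against 37.6, 35.1 and 40.9 in IR and 102, 40.6 and 42.9 in NC. Nqo1, the quinone reductase that is the usual readout of NRF2, was at 19.6, 24.4 and 16.6 FPKM in IR+LYC, against 20.04, 20.1 and 23.0 in IR and 22.3, 18.8 and 16.3 in NC. Hmox1, heme oxygenase, was at 5.62, 2.21 and 4.24 FPKM in IR+LYC, against 3.34, 5.79 and 4.55 in IR and 2.05, 2.08 and 2.08 in NC. The groups overlapped at both, and IR+LYC 2 was near the NC level of Hmox1. The list median was -0.18, -0.39 without IR+LYC 2 and -0.06 without IR+LYC 1.

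The NADPH oxidases make reactive oxygen, and 9 of their 11 genes were lower (median log2 difference -0.18, -0.04 without IR+LYC 2 and -0.36 to -0.03 with 1 library left out). Duox2, the dual oxidase of the epithelial surface, was the separate gene, at 16.2, 6.53 and 18.9 FPKM in IR+LYC, against 29.2, 27.5 and 19.4 in IR and 6.74, 20.6 and 21.5 in NC, and it overlapped after rescaling. Nox1 (chromosome X, 134086421 to 134221956), the superoxide-generating oxidase that is strongest in colon, whose gene overlaps Cstf2 on the other strand, was at 4.17, 0.397 and 4.18 FPKM in IR+LYC, against 1.57, 6.18 and 1.90 in IR and 0.103, 0.224 and 0.0748 in NC. IR+LYC 2 was the lowest irradiated library of Nox1 and the nearest to NC. Iron handling genes had a median of -0.11 over 14 genes (-0.27 without IR+LYC 2 and -0.27 to 0.06 with 1 library left out). Tfrc and Steap3, which frees iron from endosomes, were separate and higher, and Cybrd1 and Acsl4, which feeds lipid peroxidation, were separate and lower. Of these, Steap3, Cybrd1 and Acsl4 overlapped after rescaling.

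Carotenoid and retinoid genes, through which lycopene is taken up and cleaved, had a median of -0.03 over 24 genes (-0.22 without IR+LYC 2 and 0.15 without IR+LYC 1). Bco1, the oxygenase that cleaves carotenoids to retinal (chromosome 8, 117095854 to 117133720), was at 1.25, 18.8 and 0.458 FPKM in IR+LYC, against 1.60, 0.874 and 1.18 in IR and 13.2, 19.3 and 16.8 in NC. At Bco1, IR+LYC 2 was within the NC range, and the other 5 irradiated libraries were far below it. Bco2, the oxygenase of eccentric cleavage, which accepts lycopene, and whose gene overlaps Il18 on the other strand, was at 3.81, 54.3 and 10.5 FPKM in IR+LYC, against 25.4, 8.01 and 24.2 in IR and 47.0, 32.6 and 29.7 in NC, with IR+LYC 2 the highest of the 9 libraries. Scarb1 was at 2.71, 2.68 and 2.30 FPKM in IR+LYC, against 1.95, 2.65 and 2.20 in IR and 2.11, 2.09 and 2.15 in NC. Isx, the transcription factor that represses Scarb1 and Bco1 when retinoic acid is plentiful, was at 22.6, 44.99 and 46.7 FPKM in IR+LYC, against 59.3, 33.0 and 40.2 in IR and 39.4, 44.4 and 61.8 in NC. Neither Scarb1 nor Isx set the groups apart. The separate genes were Rbp4, the retinol carrier, which was higher and overlapped after rescaling, and Dhrs9, a retinol dehydrogenase, which was lower.

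**Figure D3:**
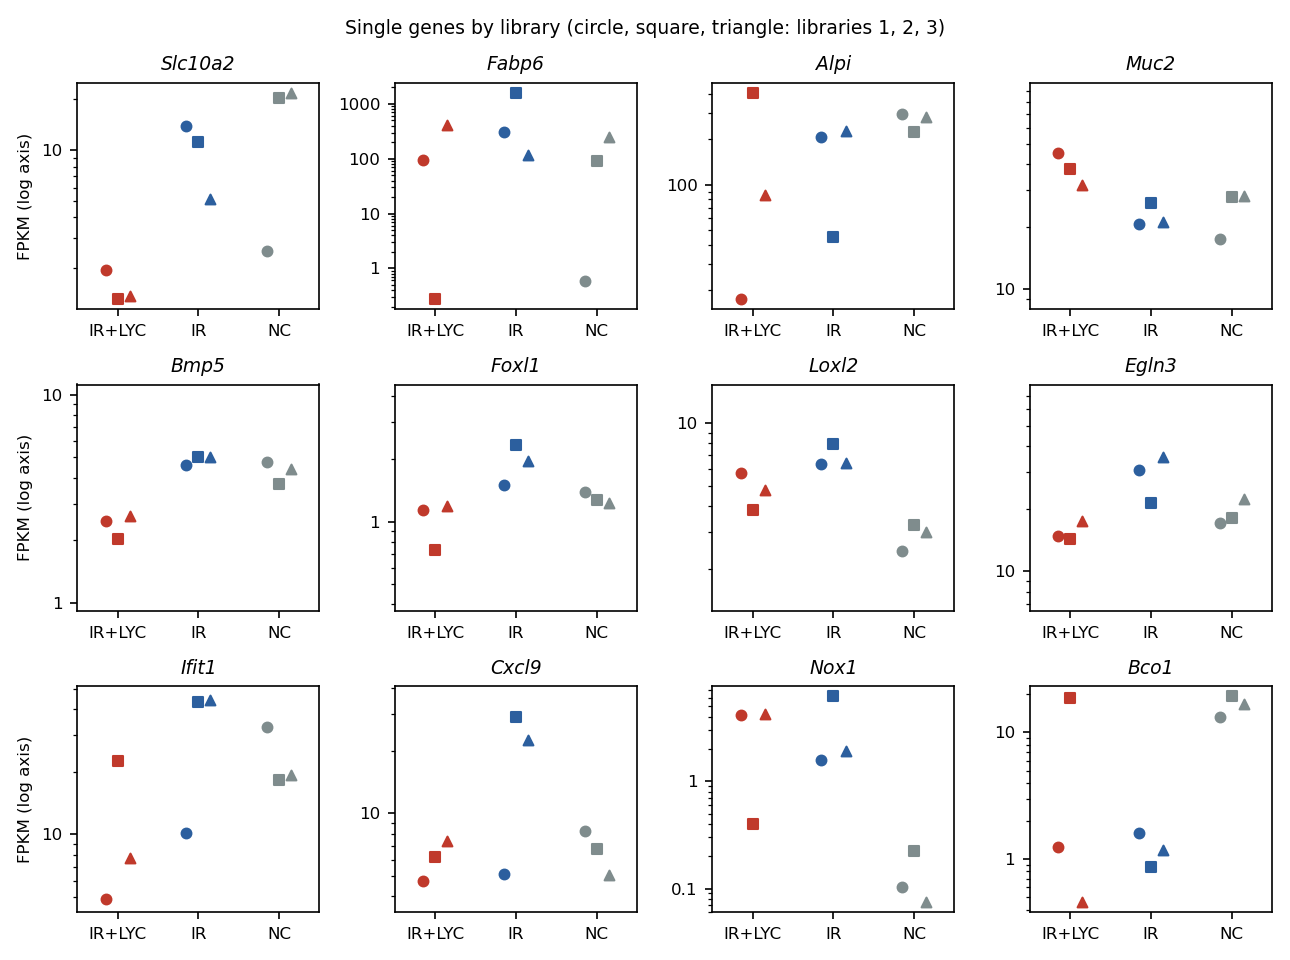
FPKM on log axes for 12 genes in each library, IR+LYC in red, IR in blue and NC in grey. Slc10a2, Muc2, Bmp5, Foxl1, Loxl2 and Egln3 are genes whose red and blue marks do not overlap. In Alpi and Bco1 the red square, IR+LYC 2, lies with the grey NC marks or beyond them, away from the red circle and triangle. In Nox1 the red square lies between the grey marks and the other irradiated libraries.

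Metabolic lists held few separate genes, and their medians moved with the choice of libraries. Xenobiotic metabolism genes had a median log2 difference of -0.12 over 27 genes, -0.85 without IR+LYC 2 and 0.42 without IR+LYC 1. Cyp1a1, a cytochrome induced through the aryl hydrocarbon receptor, was the separate gene, at 0.850, 1.25 and 0.871 FPKM in IR+LYC, against 0.620, 0.351 and 0.450 in IR and 1.02, 20.1 and 1.57 in NC, with 1 NC library far above the rest. Of its IR libraries only IR 1 was at 0.5 FPKM or more, so Cyp1a1 reached the level for testing only with the IR+LYC libraries. Its reads were 67, 53 and 50 in IR+LYC and 34, 22 and 23 in IR. PPARA and fatty acid oxidation genes had a median of -0.09 over 20 genes (-0.34 without IR+LYC 2 and -0.34 to 0.14 with 1 library left out). Acot1, a thioesterase of fatty acyl-CoA, was separate at 5.39, 3.5003 and 4.56 FPKM in IR+LYC, against 2.10, 2.43 and 3.12 in IR and 4.24, 0.946 and 1.44 in NC. Acot1 is a PPARA target and was higher, while 14 of the 20 genes of the list were lower. Cholesterol synthesis genes were lower at 18 of 19 with 0 separate (median -0.19, -0.08 without IR+LYC 2 and -0.29 to -0.08 with 1 library left out). All 13 mitochondrially encoded genes were higher with 0 separate (median 0.45, 0.19 without IR+LYC 2 and 0.19 to 0.67 with 1 library left out). Nuclear genes of oxidative phosphorylation had a median of 0.06 over 20 genes, and of -0.22 without IR+LYC 2 and -0.22 to 0.27 with 1 library left out. Mitochondrial reads took 3.77, 4.84 and 4.75% of the IR+LYC libraries, against 3.72, 3.16 and 3.28% of the IR libraries.

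Interferon response genes had lower means in IR+LYC throughout the 2 lists, with 2 IR libraries holding the high values. All 26 type I interferon genes and all 27 interferon gamma genes tested were lower, 0 passed and 0 were separate. The type I list was at 2.45, 3.31 and 2.73 in IR+LYC, against 2.46, 4.69 and 3.84 in IR and 3.31, 3.22 and 3.04 in NC, as mean log2(FPKM + 1). The median log2 difference was -0.76, -0.95 without IR+LYC 2, -1.37 without IR 1 and -0.26 without IR 2. IR 2 and IR 3 were above every other library, and IR 1 was at the level of IR+LYC 1. Ifit1, an antiviral protein that binds foreign RNA (chromosome 19, 34640871 to 34650009), was at 4.90, 22.5 and 7.69 FPKM in IR+LYC, against 10.1, 43.3 and 44.5 in IR and 32.8, 18.2 and 19.2 in NC. Irf7, the factor that amplifies interferon production, was at 9.82, 28.8 and 16.9 FPKM in IR+LYC, against 14.6, 79.5 and 54.0 in IR and 29.8, 29.0 and 23.3 in NC. Cmpk2, a mitochondrial nucleotide kinase induced by interferon, had the smallest p of the list, at 4.17, 12.6 and 8.52 FPKM in IR+LYC, against 12.0, 21.7 and 21.8 in IR and 22.1, 17.0 and 24.2 in NC (log2 difference -1.11, SE 0.41). Its highest lycopene library, IR+LYC 2, was just above IR 1, so the groups overlapped.

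The interferon gamma list was at 2.45, 3.21 and 2.92 in IR+LYC, against 2.54, 4.21 and 3.65 in IR and 3.29, 3.004 and 2.96 in NC. Its median log2 difference was -0.57, -0.68 without IR+LYC 2, -1.05 without IR 1 and -0.19 without IR 2, so its size rested largely on the IR libraries. The chemokines of this list recruit lymphocytes to inflamed tissue. Cxcl9, a chemokine that draws T cells (chromosome 5, 92321347 to 92328079), was at 4.72, 6.14 and 7.37 FPKM in IR+LYC, against 5.13, 29.0 and 22.6 in IR and 8.22, 6.77 and 5.06 in NC. Cxcl10, a ligand of the same receptor, whose gene overlaps Art3 on the other strand, was at 2.32, 2.07 and 4.59 FPKM in IR+LYC, against 1.78, 12.1 and 8.53 in IR and 3.36, 3.44 and 2.99 in NC. For both chemokines IR 2 and IR 3 were above every other library, while IR 1 was among the low lycopene and NC values of Cxcl9 and the lowest of the 9 libraries for Cxcl10. MHC class II genes, also driven by interferon gamma, were lower at 10 of 12 (median -0.23, -0.19 without IR+LYC 2 and -0.42 to -0.07 with 1 library left out) with 0 separate.

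Interferons act on promoters through the interferon-stimulated response element, bound by STAT and IRF factors, and through the gamma-activated site. Promoter windows of 300 bases from RefSeq on GRCm38.p6, 250 before the start and 50 after, were searched on both strands for GAAANNGAAA and TTCNNNGAA. The first motif occurred in 12 of 20 windows of the type I list (60%) and in 11 of 20 of the interferon gamma list (55%), against 3.44% of all 32851 windows. The second occurred in 3 of 20 (15%) and in 9 of 20 (45%), against 8.30%. The windows belonged to 18 of the 26 genes of the first list and 18 of 28 of the second. The promoters of Ifit1 and Cxcl10 are shown because these genes carry the pattern of high IR 2 and IR 3, with matches to the first motif, on either strand, in capitals. Ifit1 (chr19:34640639-34640938, plus strand) holds 2, and Cxcl10 (chr5:92348840-92349139, minus strand) holds 1.
Ifit1 promoter: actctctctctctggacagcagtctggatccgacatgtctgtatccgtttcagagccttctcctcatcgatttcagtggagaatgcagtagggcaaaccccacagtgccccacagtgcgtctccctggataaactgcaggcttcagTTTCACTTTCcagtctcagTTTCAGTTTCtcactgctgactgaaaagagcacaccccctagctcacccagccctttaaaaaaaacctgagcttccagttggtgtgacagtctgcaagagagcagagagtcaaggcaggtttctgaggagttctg
Cxcl10 promoter: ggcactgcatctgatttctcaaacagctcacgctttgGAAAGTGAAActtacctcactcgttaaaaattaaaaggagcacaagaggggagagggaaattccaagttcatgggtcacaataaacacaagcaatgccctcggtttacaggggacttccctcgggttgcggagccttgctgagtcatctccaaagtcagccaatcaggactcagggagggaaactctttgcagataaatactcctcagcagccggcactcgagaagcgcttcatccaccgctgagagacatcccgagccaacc

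Other immune lists had few separate genes. Inducible epithelial antimicrobial genes were lower at 11 of 15 and separate at 3, with a median log2 difference of -0.48 (-0.49 without IR+LYC 2 and -0.53 to -0.41 with 1 library left out). Over all genes tested, 3.23% were separate and lower. Nos2, the inducible nitric oxide synthase (chromosome 11, 78920787 to 78960254), was at 2.70, 6.35 and 5.31 FPKM in IR+LYC, against 16.7, 6.67 and 10.6 in IR and 12.4, 23.9 and 21.9 in NC (log2 difference -1.07, SE 0.38). IR+LYC 2 and IR 2 were close to touching at this gene, and NC 2 and NC 3 were the highest of the 9 libraries. Saa3, an acute phase protein, was at 1.13, 0.705 and 0.652 FPKM in IR+LYC, against 1.31, 7.14 and 1.63 in IR and 0.414, 0.416 and 0.379 in NC, and Duox2 was the other separate gene, both with overlap after rescaling. Reg3g, a lectin that kills Gram-positive bacteria, was at 181, 2029 and 562 FPKM in IR+LYC, against 2616, 534 and 1578 in IR and 943, 994 and 924 in NC. Its lycopene libraries spanned a range that contained every other library but IR 1. NF-kB cytokine genes were lower at 17 of 20 (median -0.15, -0.11 without IR+LYC 2 and -0.21 to -0.02 with 1 library left out), with Nos2 as the separate gene. Tnf was at 1.77, 0.801 and 0.237 FPKM in IR+LYC, against 0.621, 1.41 and 0.865 in IR and 0.590, 0.383 and 0.528 in NC. Il1b was at 2.36, 1.55 and 1.32 FPKM in IR+LYC, against 1.49, 2.38 and 2.40 in IR and 1.61, 1.67 and 1.07 in NC. The groups overlapped at both cytokines, and Il6 was below the level for testing, with a highest value of 0.0400 FPKM in the 6 libraries.

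Complement genes were lower at 15 of 16 (median log2 difference -0.20, 0.02 without IR+LYC 2 and -0.38 to 0.02 with 1 library left out), and C2 and Cd55 were separate. C2, a protease of the classical pathway, whose gene overlaps Zbtb12 on the other strand, was at 1.07, 1.41 and 1.17 FPKM in IR+LYC, against 2.39, 3.88 and 2.62 in IR and 2.47, 2.27 and 2.65 in NC (log2 difference -0.82, SE 0.17). Being separate and lower places the lycopene libraries of C2 below every IR library, whichever lycopene library is left out. They were also below every NC library. Macrophage and monocyte genes were lower at 16 of 18 (median -0.18, 0.03 without IR+LYC 2 and -0.37 to 0.04 with 1 library left out), and neutrophil genes at 7 of 7 (-0.21, -0.23 without IR+LYC 2 and -0.32 to -0.11 with 1 library left out), with 0 separate in either list. The neutrophil genes Ltf (0.267, 0.875 and 0.239 FPKM in IR+LYC) and S100a8 (1.27, 0.0946 and 0.490) reached the level for testing only with the IR libraries. This favours lower genes in the count of 7. T and intraepithelial lymphocyte genes were lower at 18 of 20 with 0 separate (median -0.26, -0.48 without IR+LYC 2 and -0.02 without IR+LYC 1). Their level was 1.46, 2.76 and 2.05 in IR+LYC, against 2.21, 2.33 and 2.54 in IR and 3.45, 3.80 and 3.22 in NC. B and plasma cell genes were higher at 13 of 15 with 0 separate (median 0.14, -0.04 without IR+LYC 2 and -0.04 to 0.59 with 1 library left out), at 3.35, 4.63 and 4.29 in IR+LYC, against 3.78, 3.81 and 4.003 in IR and 4.96, 5.63 and 5.43 in NC. In both lymphocyte lists the 6 irradiated libraries lay below every NC library, and IR+LYC 2 was the highest of the lycopene group.

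**Figure D4:**
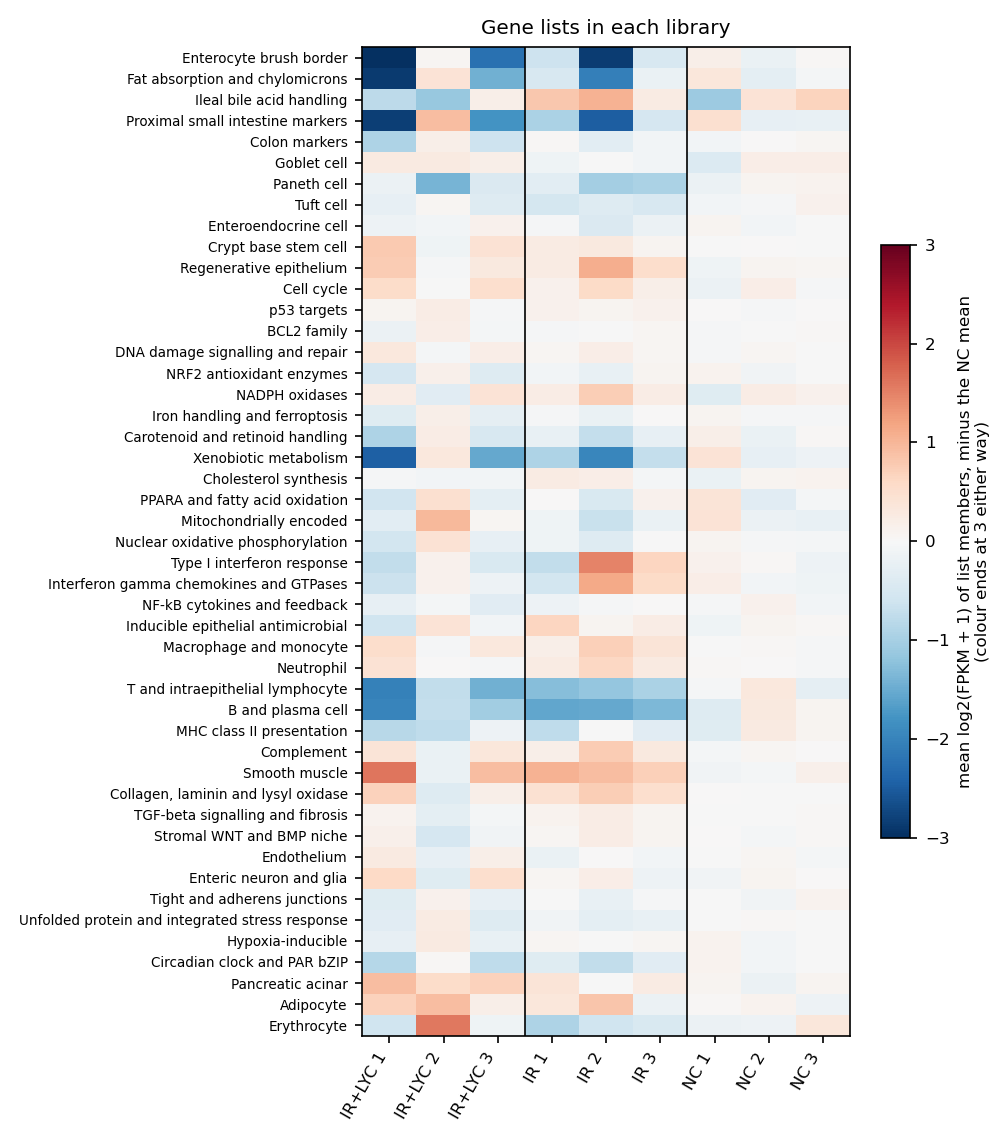
Mean log2(FPKM + 1) of the tested members of each of the 47 lists in each library, minus the mean of the 3 NC libraries, with red above and blue below NC. The brush border, fat absorption, proximal intestine and xenobiotic rows are dark blue in IR+LYC 1 and IR 2 but pale in IR+LYC 2, and the interferon rows are red in IR 2 and IR 3.

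Stromal genes supplied the list with the largest number of separate members, but not the largest share. The tuft list had 4 higher and 1 lower of 10 tested. Of the higher ones, Sh2d6 and Matk could enter only as higher genes, which raises that share. Over all genes tested, 4.25% were separate and higher and 3.23% separate and lower. In the WNT and BMP niche list, genes by which fibroblasts and telocytes under the epithelium set stem cell activity, 16 of 20 were lower and 5 were separate (Bmp5, Foxl1, Wnt5a, Bmp4 and Pdgfra), while Sfrp5 was separate and higher. Under the rescaling used above, Bmp5 and Foxl1 kept their separation, and Wnt5a, Bmp4, Pdgfra and Sfrp5 overlapped. Bmp5, a ligand of the BMP pathway that favours differentiation, was at 2.49, 2.04 and 2.61 FPKM in IR+LYC, against 4.61, 5.03 and 5.001 in IR and 4.74, 3.73 and 4.41 in NC (log2 difference -0.80, SE 0.11; -0.73 without IR+LYC 2). Being separate and lower places all 3 lycopene libraries of Bmp5 below every IR library, and they were also below every NC library. Foxl1, the transcription factor that marks telocytes, was at 1.14, 0.728 and 1.18 FPKM in IR+LYC, against 1.504, 2.33 and 1.96 in IR and 1.39, 1.26 and 1.23 in NC. The lycopene libraries of Foxl1 were likewise below every other library. Wnt5a, a noncanonical WNT ligand, was at 2.43, 1.39 and 1.51 FPKM in IR+LYC, against 2.63, 3.24 and 3.63 in IR and 3.05, 1.86 and 2.24 in NC. Bmp4, another BMP ligand, was at 10.0, 6.37 and 8.23 FPKM in IR+LYC, against 10.97, 15.6 and 12.0 in IR and 12.9, 10.98 and 12.1 in NC. IR+LYC 2 was the lowest library at each of Bmp5, Foxl1, Wnt5a and Bmp4. Pdgfra, a receptor of fibroblasts and telocytes, was at 7.78, 3.35 and 6.62 FPKM in IR+LYC, against 8.31, 9.20 and 8.17 in IR and 6.79, 6.18 and 6.63 in NC. Sfrp5, a secreted WNT antagonist, was at 2.46, 1.52 and 2.07 FPKM in IR+LYC, against 0.937, 1.15 and 0.660 in IR and 1.74, 1.62 and 1.79 in NC. The list as a whole had a median log2 difference of -0.22, which was 0.00 without IR+LYC 2 and -0.49 to 0.00 with 1 library left out.

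Matrix genes were lower at 24 of 24 in the list of collagens, laminins and lysyl oxidases, with 4 separate and 0 past the test. The median log2 difference was -0.44, -0.16 without IR+LYC 2 and -0.70 to -0.16 with 1 library left out. IR+LYC 2 had the lowest level of the list (3.55, 2.48 and 3.04 in IR+LYC, against 3.33, 3.61 and 3.38 in IR and 2.87, 2.86 and 2.86 in NC). Loxl2, which crosslinks collagen (chromosome 14, 69609068 to 69695834), was at 5.77, 3.81 and 4.77 FPKM in IR+LYC, against 6.36, 7.94 and 6.41 in IR and 2.42, 3.25 and 3.01 in NC (log2 difference -0.46, SE 0.17). The lycopene libraries lay between NC and IR at this gene, and its groups, like those of the laminins Lama4 and Lamc1, overlapped after rescaling. Col14a1 kept its separation. Genes of TGF-beta signalling and fibrosis were lower at 20 of 22, with Inhba, a subunit of activin, as the separate gene before rescaling but not after it (median -0.16, -0.09 without IR+LYC 2 and -0.22 to -0.09 with 1 library left out). Inhba was at 0.504, 0.360 and 0.289 FPKM in IR+LYC, against 0.589, 0.876 and 0.802 in IR. It thus reached the level for testing through the IR libraries. Smooth muscle genes, which report how much of the muscle coat a sample holds, had a median of -0.13 over 15 genes and of 0.43 without IR+LYC 2 and -0.53 to 0.43 with 1 library left out. Their level was 6.05, 4.23 and 5.36 in IR+LYC, against 5.48, 5.35 and 5.15 in IR and 4.34, 4.39 and 4.58 in NC. IR+LYC 2 and the NC libraries were thus alike and lower in muscle genes than the other 5 irradiated libraries, and the part of this in the stromal results was not tested. Endothelial genes had a median of 0.11 over 19 genes (0.35 without IR+LYC 2 and 0.05 to 0.35 with 1 library left out). Ccl21a, a chemokine of lymphatic vessels with near-identical copies that can share its reads, was the separate gene and overlapped after rescaling. Enteric neuron and glia genes were higher at 17 of 18 with 0 separate (median 0.22, 0.51 without IR+LYC 2 and 0.07 to 0.51 with 1 library left out).

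Hypoxia-inducible genes had a median log2 difference of -0.06 over 19 genes, -0.30 without IR+LYC 2 and -0.30 to 0.01 with 1 library left out, and Egln3 and Pdk1 were separate and lower. Egln3, a prolyl hydroxylase that marks hypoxia-inducible factor for destruction and is itself induced by it (chromosome 12, 54178981 to 54203860), was at 14.8, 14.3 and 17.5 FPKM in IR+LYC, against 30.7, 21.3 and 35.7 in IR and 17.1, 18.1 and 22.2 in NC (log2 difference -0.84, SE 0.22). IR was the group that stood above both others, apart from IR 2, which lay within the NC range. Pdk1, a kinase that keeps pyruvate out of mitochondria, was at 7.50, 7.27 and 8.03 FPKM in IR+LYC, against 8.36, 9.30 and 9.05 in IR and 6.34, 6.57 and 5.47 in NC, and overlapped after rescaling. Hypoxia-inducible factor binds a 5-base core of 1 of 2 spellings. The spelling ACGTG occurred on either strand in 13 of 21 promoter windows of the list (61.9%), against 19.6% of all windows. The 21 windows belonged to 15 of the 19 genes of the list, of which 12 had a match to ACGTG. The spelling GCGTG occurred in 12 of 21 windows (57.1%), against 32.4%. The promoter of Egln3, the gene with the larger difference of the pair, is shown with its 1 match to ACGTG in capitals (chr12:54203825-54204124, minus strand). The other spelling is not among its letters on either strand.
Egln3 promoter: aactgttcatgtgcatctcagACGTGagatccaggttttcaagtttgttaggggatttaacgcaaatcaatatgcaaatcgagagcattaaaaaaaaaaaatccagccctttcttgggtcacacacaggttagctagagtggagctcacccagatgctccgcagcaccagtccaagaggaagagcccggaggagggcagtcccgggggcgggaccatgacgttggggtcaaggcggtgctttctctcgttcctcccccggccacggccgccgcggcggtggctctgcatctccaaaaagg

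The remaining lists were near the median of all genes or followed IR+LYC 2. Tight and adherens junction genes were lower at 16 of 20 with 0 separate (median log2 difference -0.11, -0.28 without IR+LYC 2 and -0.28 to 0.00 with 1 library left out). Tjp1, the scaffold ZO-1 of tight junctions, was at 12.1, 16.2 and 11.9 FPKM in IR+LYC, against 17.1, 13.2 and 18.0 in IR and 18.3, 16.1 and 18.8 in NC. Genes of the unfolded protein and integrated stress response had a median of -0.02 over 21 genes (-0.13 without IR+LYC 2 and -0.13 to 0.08 with 1 library left out). Circadian genes had a median of -0.05 over 17 genes (-0.27 without IR+LYC 2 and -0.27 to 0.12 with 1 library left out), and Cry1 and Rora, of the clock's repressing and activating arms, were separate and lower before rescaling but not after it.

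Markers of blood and of neighbouring tissues were counted as well. Erythrocyte genes were higher at 5 of 5 (median log2 difference 1.26, 0.39 without IR+LYC 2 and 0.39 to 1.74 with 1 library left out), at 2.18, 4.36 and 2.64 in IR+LYC, against 1.84, 2.19 and 2.31 in IR and 2.60, 2.62 and 3.12 in NC. No other library reached IR+LYC 2 on this list. Hbb-bt, a beta-globin gene with near-identical copies that can share its reads, was the separate gene. Adipocyte genes had a median of 0.24 over 11 genes (0.18 without IR+LYC 2 and -0.09 to 0.59 with 1 library left out), at levels of 3.80, 4.03 and 3.27 in IR+LYC, against 3.43, 3.92 and 2.92 in IR and 3.14, 3.20 and 2.95 in NC. Of 15 pancreatic acinar genes, 13 were below the level for testing, with a highest value of 1.18 FPKM, and the list (median 0.52, 0.61 without IR+LYC 2 and 0.40 to 0.61 with 1 library left out) rested on Rnase1 and Cela1. Rnase1, a secreted ribonuclease, was separate at 21.4, 25.7 and 17.6 FPKM in IR+LYC, against 13.3, 6.76 and 12.2 in IR and 15.4, 8.05 and 14.6 in NC. The part of blood, fat or pancreas in the other results was not tested.

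**Figure D5:**
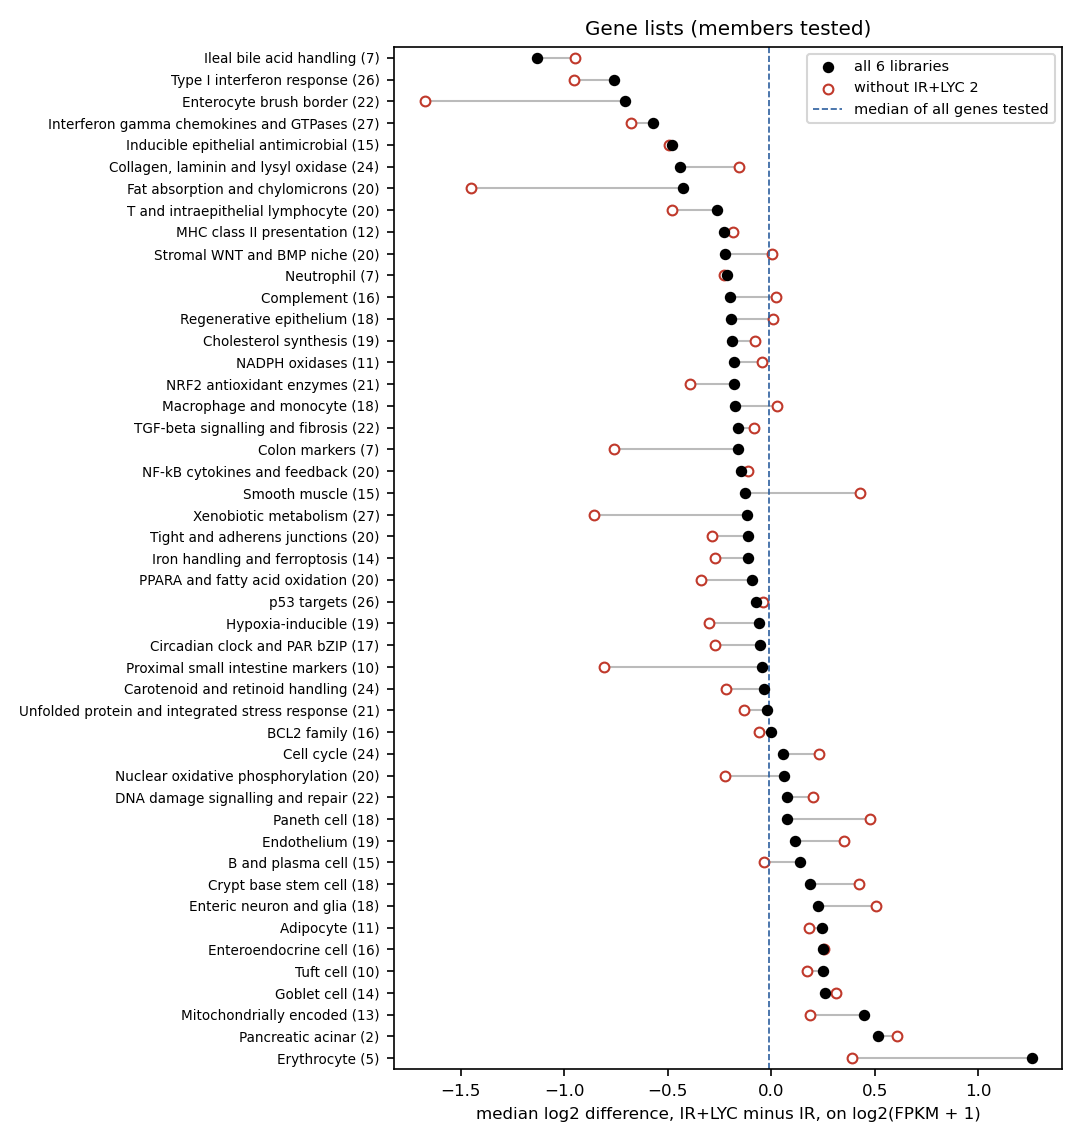
Median log2 difference, IR+LYC minus IR, of the tested members of each list (number in brackets), with all 6 libraries (black) and without IR+LYC 2 (open red). The dashed line is the median of all genes, -0.01. Brush border and fat absorption move furthest left without IR+LYC 2 (-1.68 and -1.45), and goblet, enteroendocrine and inducible antimicrobial genes hardly move.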

How the data were processed

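RNA of the intestine was sequenced in 9 libraries, 3 for each of 3 groups. Reads were trimmed with fastp and aligned with HISAT2 2.0.5, per the submitters' processing notes, and the counting tool, its use of strand, the genome build and the annotation are not given in the sources used here. The authors deposited FPKM per gene and library, with gene coordinates that are printed as deposited. For 53499 of the 54532 gene IDs, the genes given with coordinates included, chromosome, start and end are those of GENCODE M21 on GRCm38. All 165652 values checked were within 0.01 read of a whole number of reads, which recovers 17803889 to 22414949 reads per library and limits what can be seen at low genes. The divisor implied by the FPKM was 1.26, 0.854 and 1.16 times the recovered reads in IR+LYC 1, 2 and 3. In IR 1, 2 and 3 it was 0.993, 1.20 and 0.968 times the recovered reads. The FPKM were thus not scaled to the reads on genes alone.

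IR+LYC and IR were compared with limma 3.58.1 (R 4.3.3) on log2(FPKM + 1), with a trended variance, in the 6 libraries alone, over genes at 0.5 FPKM or more in at least 3 of them, with Benjamini-Hochberg adjustment over all. The script was checked on simulated data. Genes were called separate where the 3 values of each group did not overlap. The genes and the 47 lists were chosen with earlier results of these data known. The named genes were, in each direction, the 12 separate genes of smallest p with a mean of at least 5 FPKM in the higher group (predicted genes and receptor segments left out), the 3 of smallest p in each list and 24 fixed genes; other list members were named after their values were seen. Alternatives changed the pseudocount, filter, scaling, variance model, samples and count model. The labels do not tie equal library numbers in different groups to shared animals or days. Values of a few genes are not reported here.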

Additional observations from a re-analysis of the deposited data

How the results depend on the processing

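No gene passed in any of the 16 alternatives with limma or limma-voom, where the smallest adjusted p ran from 0.0803 to 1. The number of genes at an unadjusted p under 0.05, 405 as reported, was 739 with no filter on low values, 156 with a mean of at least 5 FPKM, 647 with all 9 libraries in the fit and 4529 without IR+LYC 2 and IR 2, a pair chosen from their place in these data. Leaving out 1 library at a time gave 192 (without IR 3) to 2160 (without IR+LYC 2). The number of separate genes, 1109 as reported, was 1802 with no filter, 480 with a mean of at least 5 FPKM, 9466 without IR+LYC 2 and IR 2, and 1596 to 5376 with 1 library left out, where fewer samples make separation easier. The causes of the other shifts were not tested.

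With the replicate number as a block, 225 genes had an unadjusted p under 0.05 and 0 passed. Deviations from the group mean of same-numbered IR+LYC and IR libraries correlated at -0.31, -0.67 and -0.31. Those of differently numbered libraries correlated at -0.63 to 0.65. Such deviations cancel within a group of 3, so they cannot show whether equal numbers share animals or days.

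Direction changed in 40 of 2710 values of named genes (23 of 173 genes). The 24 genes chosen for groups that do not overlap are among the 173, and that choice fixes their direction when a library is left out. List medians changed sign in 60 of 752 values, in 27 of 47 lists, and 16 of the 60 arose without IR+LYC 1.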
